A study of Rattus norvegicus with 20 samples.

Results

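The transport and metabolism genes that astrocytes express in uninjured tissue were followed through 5 regions of the brain and spinal cord of injured rats. The members were the 9 genes Aqp4, Slc1a2, Slc1a3, Gja1, Gjb6, Aldh1l1, Aldoc, Glul and Slc6a11, taken by symbol from the 30443 genes of the expression table. Each symbol occurred once, and all 9 were among the 15210 genes that reached 1 FPKM in at least 1 library. FPKM is the number of sequenced fragments scaled by transcript length and by the mapped fragments of the library, so levels of different genes can be set side by side per length.

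The 4 animals were adult female Long-Evans rats, wild type and about 6 to 8 months old, and every one carried a hemi-contusion at cervical level 4 made with a displacement of 0.7 mm and, 2 weeks later, an electrode array in the motor cortex opposite the injured side. After 1 more week, 2 animals were stimulated through the array for 1 week, at 10 Hz for 5 hours a day in cycles of 5 minutes on and 2 minutes off at 80% of the current that moved the forelimb, while the 2 controls were connected without current. All animals also received dexamethasone before implantation, with antibiotics and analgesics. Region 1 was labelled subcortical white matter under the implant and region 2 the same block in the other hemisphere. Region 3 was the cord rostral to the lesion, region 4 the lesion epicenter and region 5 the cord caudal to it, each with gray and white matter. Each region had 4 libraries, 1 from each animal, and no uninjured or unimplanted animal was included.

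Astrocytes are the glial cells that keep the fluid around neurons constant. They take up released glutamate through the transporters encoded by Slc1a2 and Slc1a3, turn it into glutamine with glutamine synthetase (Glul), and remove GABA through the transporter encoded by Slc6a11. Potassium and metabolites pass from cell to cell through gap junctions built from the connexins of Gja1 and Gjb6, and water crosses the endfeet at blood vessels through the channel encoded by Aqp4. Aldoc encodes a brain form of the glycolytic enzyme aldolase and Aldh1l1 a folate enzyme, and both are widely used to mark astrocytes. Astrocytes near an injury are known to become reactive, a state marked by the filament genes Gfap and Vim.

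The region upstream of each gene is shown for the pair of glutamate transporters and for Aldoc and Slc6a11, because the first pair was higher in regions 1 and 2 than in the cord and the other pair lower. RefSeq promoter windows in the GRCr8 build, 250 bases before to 50 bases after each annotated start, were listed for all 9 members, with 15 starts in all. The sequences below belong to the start listed first for each gene, run 5′ to 3′ on the gene's strand, and have the letters TTGGC or their reverse complement in capitals. TTGGC is part of the motif bound by NFI factors, which act in astrocyte development.
Slc1a2, chr3:109459859-109460158, plus strand: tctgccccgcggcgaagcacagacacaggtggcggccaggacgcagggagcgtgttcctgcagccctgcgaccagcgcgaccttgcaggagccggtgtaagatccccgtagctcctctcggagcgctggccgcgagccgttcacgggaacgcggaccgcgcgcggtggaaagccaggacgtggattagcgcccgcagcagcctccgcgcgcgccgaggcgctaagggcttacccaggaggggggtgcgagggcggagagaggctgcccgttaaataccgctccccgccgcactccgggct
Slc1a3, chr2:59557759-59558058, minus strand: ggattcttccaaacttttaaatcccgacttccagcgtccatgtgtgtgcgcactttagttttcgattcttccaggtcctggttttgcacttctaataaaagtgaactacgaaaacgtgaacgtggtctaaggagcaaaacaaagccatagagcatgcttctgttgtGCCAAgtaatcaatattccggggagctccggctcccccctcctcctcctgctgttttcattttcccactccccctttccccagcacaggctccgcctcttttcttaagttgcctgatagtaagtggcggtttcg
Aldoc, chr10:63715294-63715593, plus strand: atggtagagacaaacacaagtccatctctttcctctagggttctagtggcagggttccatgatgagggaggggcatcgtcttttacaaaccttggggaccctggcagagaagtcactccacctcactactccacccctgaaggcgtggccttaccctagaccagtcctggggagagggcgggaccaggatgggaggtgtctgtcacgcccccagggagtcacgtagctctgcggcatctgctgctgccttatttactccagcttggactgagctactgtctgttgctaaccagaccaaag
Slc6a11, chr4:148853307-148853606, plus strand: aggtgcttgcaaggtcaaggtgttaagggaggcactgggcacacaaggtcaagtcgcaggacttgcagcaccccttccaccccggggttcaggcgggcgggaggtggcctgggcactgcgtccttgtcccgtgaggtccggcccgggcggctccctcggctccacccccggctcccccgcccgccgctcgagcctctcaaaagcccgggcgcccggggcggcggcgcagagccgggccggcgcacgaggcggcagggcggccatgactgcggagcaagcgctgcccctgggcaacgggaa

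On either strand, the letters TTGGC were found in the first-listed window of 1 of the 9 members, Slc1a3, and in 45.8% of all 33469 promoter windows. That share counts every annotated start, not only the start listed first for a gene. In later-listed windows the letters also occurred in Slc1a2 (1 site), Gjb6 (1 site) and Glul (3 sites). The STAT spacing TTCNNNGAA was found in 0 of the 9 first-listed windows and in 8.87% of all windows. The first-listed windows of Slc1a2 and Slc6a11 held 39 and 30 CpG dinucleotides, those of Slc1a3 and Aldoc held 12 and 6, and the median of all windows was 7. Such matches describe letters only and do not place a factor on the gene.

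The members differed widely in level. Aldoc was the highest in the cord at 738 ± 88.3 FPKM (mean ± SD, n = 12 libraries), followed by Glul at 440 ± 46.6, Aqp4 at 314 ± 44.9 and Slc1a2 at 251 ± 28.1. Gja1 at 103 ± 10.4, Slc1a3 at 44.4 ± 5.22, Slc6a11 at 33.9 ± 7.81, Gjb6 at 29.1 ± 4.72 and Aldh1l1 at 12.0 ± 1.07 followed. In regions 1 and 2 the order differed. Glul was the highest at 409 ± 82.1 FPKM (n = 8 libraries), then Slc1a2 at 390 ± 57.2 and Aldoc at 261 ± 54.3, and Aldh1l1 was again the lowest at 5.07 ± 0.901. Glul was above 99.8% to 99.9% of the genes kept in each library, while Aldh1l1 was above between 35.8% and 74.2% of them. The 9 members made up 0.58% to 0.66% of all FPKM in regions 1 and 2 and 0.73% to 0.83% in the cord, and these ranges did not overlap.

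**Figure D1:**
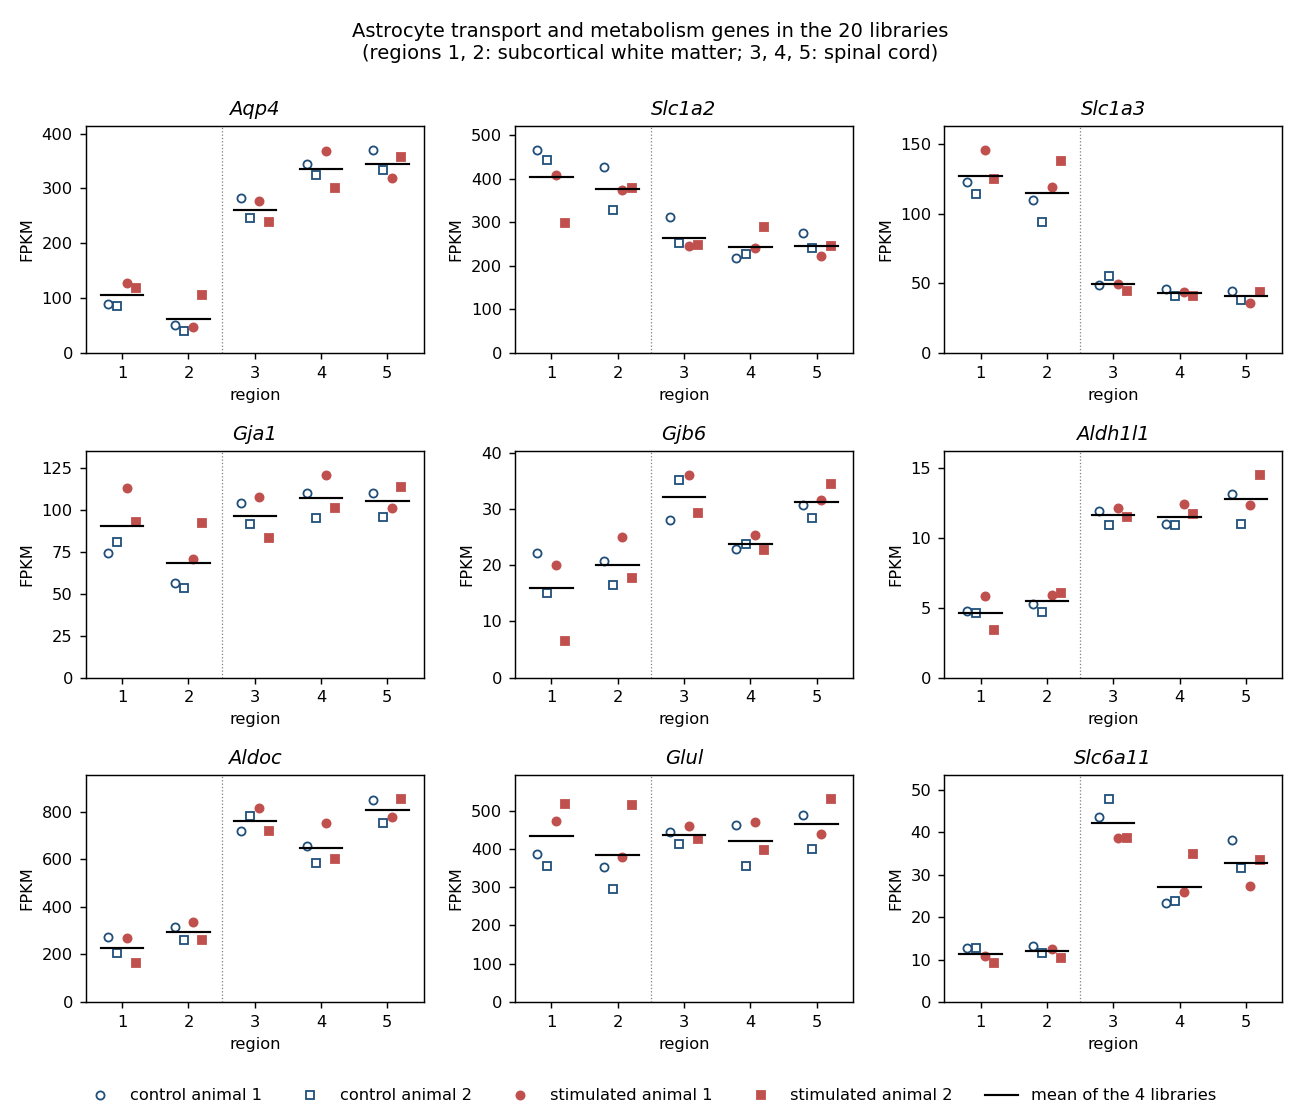
FPKM (linear axis from 0) of each of the 9 genes in regions 1 to 5. Open symbols are the 2 control animals, filled symbols the 2 stimulated animals, and bars the mean of each region (n = 4). Slc1a3 lies between 93.9 and 145 in regions 1 and 2 and between 36.0 and 55.1 in regions 3 to 5, while Aldoc, Aqp4, Aldh1l1 and Slc6a11 lie lower in regions 1 and 2 than in every cord library.

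Regions 1 and 2 were compared with the 3 cord regions to ask where along the neuraxis each gene is high. The glutamate transporters Slc1a3 and Slc1a2 were higher in regions 1 and 2, 2.72-fold and 1.55-fold, and 6 members were lower, from 4.04-fold for Aqp4 to 1.33-fold for Gja1. In limma on log2 FPKM with Benjamini-Hochberg adjustment over all genes, 8 of 9 members passed an adjusted p of 0.05, 2 higher and 6 lower. Of all genes tested, 25% were higher and 47.1% lower, so calls in this comparison were common. The median log2 difference was −0.77 over the members and −0.18 over all genes. Relative to that of all genes, the differences were 1.62 for Slc1a3, 0.81 for Slc1a2, 0.05 for Glul, −0.23 for Gja1, −0.59 for Gjb6, −1.08 for Aldh1l1, −1.34 for both Aldoc and Slc6a11 and −1.84 for Aqp4. Quantile normalization moved the median of all genes from −0.18 to −0.04 and TPM scaling moved it to 0.02, and the 8 calls remained in the same direction under each scaling.

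Among the glutamate genes, Slc1a3 had a lowest, median and highest level of 93.9, 121 and 145 FPKM in regions 1 and 2 and of 36.0, 44.1 and 55.1 in the cord. The 8 libraries of regions 1 and 2 were all above the 12 cord libraries (log2 fold change 1.44, SE 0.070, adjusted p = 9.09e-13). Slc1a2 had 298, 393 and 465 FPKM in regions 1 and 2 against 217, 245 and 312 in the cord. Its difference passed the test (0.63, SE 0.088, adjusted p = 3.36e-06), but 1 library of region 1, from stimulated animal 2, was below the highest cord library. Glul, the enzyme that uses the glutamate taken up, had 295, 383 and 516 FPKM in regions 1 and 2 and 355, 442 and 529 in the cord. Its groups overlapped and its log2 difference of −0.13 (SE 0.10) did not pass (adjusted p = 0.264). Without stimulated animal 2 it passed, with a log2 difference of −0.24 (adjusted p = 0.0428).

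The other transporter and channel genes were lower in regions 1 and 2. Aqp4 had a lowest, median and highest level of 40.1, 87.4 and 128 FPKM there and of 239, 322 and 370 in the cord, without overlap (log2 fold change −2.01, SE 0.14, adjusted p = 1.14e-10). The GABA transporter Slc6a11 had 9.22, 12.0 and 13.3 FPKM against 23.4, 34.1 and 47.7, also without overlap (−1.51, SE 0.088, adjusted p = 1.22e-11). The connexins differed less, and their groups overlapped. Gjb6 was at 6.55 to 25.0 FPKM against 22.9 to 36.2 (−0.77, SE 0.16, adjusted p = 3.69e-04), and Gja1 at 53.4 to 113 FPKM against 82.8 to 121 (−0.41, SE 0.099, adjusted p = 0.00113). These SEs treat the libraries of 1 animal as independent. Within animals the log2 differences ran from −1.40 to −0.33 for Gjb6 and from −0.74 to −0.09 for Gja1, above 0 in 0 of 4 animals for each. Both metabolic markers were lower without overlap. Aldoc had 166, 265 and 335 FPKM in regions 1 and 2 against 583, 752 and 852 in the cord (−1.52, SE 0.092, adjusted p = 2.46e-11). Aldh1l1 had 3.37, 5.04 and 6.07 FPKM against 10.9, 11.8 and 14.5 (−1.26, SE 0.083, adjusted p = 8.35e-11). In all, the groups did not overlap for 5 of 9 members, against 27.1% of all genes.

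These differences have to be read beside the composition of the blocks. Although the label names white matter without cortex, markers of cortical excitatory neurons were high in regions 1 and 2. All 3 of 3 genes of that list (Slc17a7, Tbr1, Neurod6) were called higher than in the cord, Slc17a7, the cortical vesicular glutamate transporter, at 273 ± 35.0 FPKM. Their summed level was 249 to 363 FPKM in regions 1 and 2 and 1.26 to 14.3 in the cord, where Tbr1 stood at or near the table's minimum of 0.1. All 6 of 6 oligodendrocyte markers were lower in regions 1 and 2, with a summed level of 708 to 2943 FPKM against 7403 to 10779. Markers of identity shared by astrocytes moved in the same direction as most members, with 10 of 12 called lower and 1 higher. S100b, for example, was at 290 ± 69.1 FPKM against 980 ± 165. Of the reactive astrocyte markers 5 of 8 tested were called lower, of the microglia and macrophage markers 5 of 6, and of the neuron markers 3 of 5 higher and 1 lower. The part of neuron and glia content in the members' differences was not tested. In bulk tissue, fewer cells of a type and less RNA per cell cannot be told apart.

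Of the 25 other astrocyte transport and metabolism genes, 1 was called higher and 20 lower in regions 1 and 2, with a median log2 difference of −0.98. The one that was higher was Gldc, part of the glycine cleavage system, at 7.53 ± 1.30 against 1.63 ± 0.175 FPKM (log2 fold change 2.19, adjusted p = 2.13e-15). The largest differences in the other direction were in the potassium channel subunit Kcnj16 (3.01 ± 1.21 against 25.7 ± 2.69 FPKM), the glycine transporter Slc6a9 (10.8 ± 3.20 against 80.8 ± 8.20) and the bicarbonate transporter Slc4a4 (16.6 ± 2.87 against 75.0 ± 6.30). Slc6a9 takes up the glycine that the enzyme of Gldc degrades, and these genes differed in opposite directions. Of the 5 genes of the complex that anchors the water channel at endfeet, 2 were called higher and 2 lower. Dag1, encoding dystroglycan, was at 16.5 ± 2.60 against 24.1 ± 3.23 FPKM, a log2 difference of −0.55 beside the −2.01 of Aqp4.

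**Figure D2:**
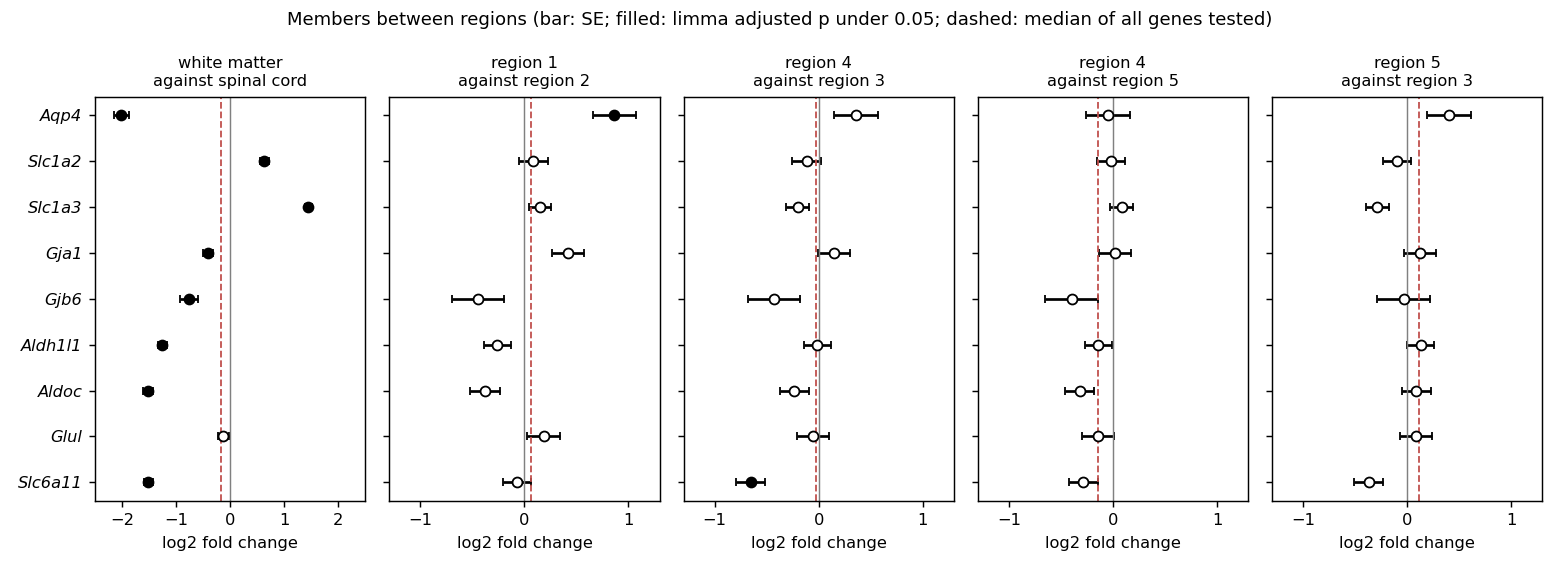
Log2 fold change of each member (points, with SE) in the 5 comparisons of regions. Filled points had a limma adjusted p under 0.05 and the dashed line is the median of all 15210 genes tested. The first panel has a wider axis than the others. Slc1a3 at 1.44 and Aqp4 at −2.01 are the extremes of the first panel, and in the other panels only Aqp4 (region 1 against 2) and Slc6a11 (region 4 against 3) are filled.

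Ratios of related genes within a library were then compared, since they do not change with the scaling between libraries. The ratio of Slc1a2 to Slc1a3 was 3.21 ± 0.733 in region 1 and 3.31 ± 0.483 in region 2 (mean ± SD, n = 4), and 5.35 ± 0.787, 5.69 ± 0.983 and 6.05 ± 0.313 in regions 3, 4 and 5. On the log2 scale it was 1.69 ± 0.265 in regions 1 and 2 (n = 8) and 2.50 ± 0.189 in the cord (n = 12), and the ranges did not overlap (exact two-sided permutation test within animals, p = 1e-04, the smallest it can give, adjusted over 3 ratios 1.5e-04). Both transporters were thus higher in regions 1 and 2, but by different amounts. The ratio of Gjb6 to Gja1 had a log2 mean of −2.18 ± 0.788 in regions 1 and 2 and −1.83 ± 0.288 in the cord. These groups overlapped and the difference did not pass (exact permutation p = 0.177, adjusted 0.177). The difference was −0.35, and it was −0.61 without control animal 1 (exact permutation p = 0.049) and −0.035 without stimulated animal 2 (exact permutation p = 0.866).

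**Figure D3:**
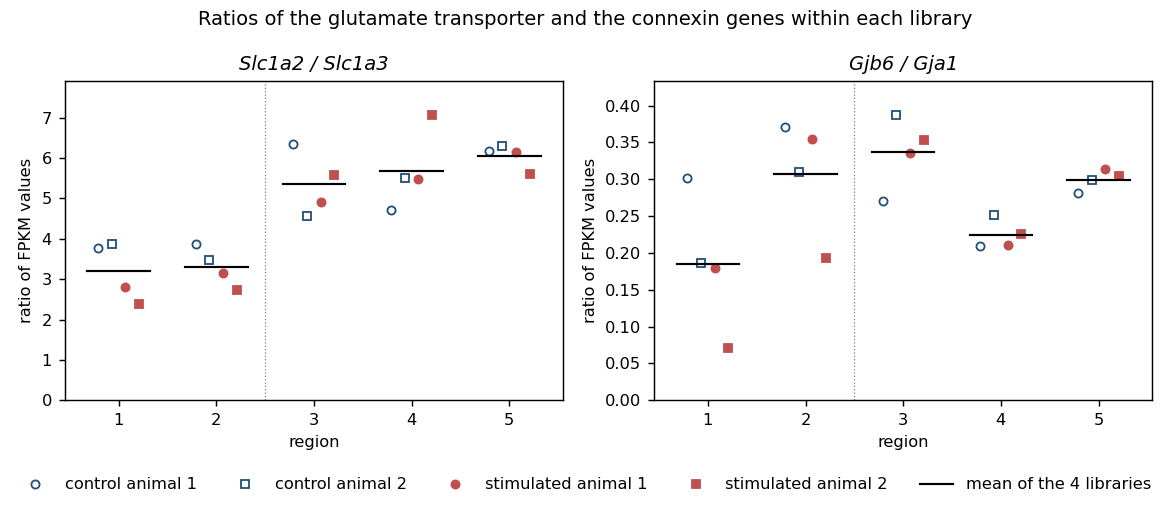
Ratio of FPKM values (linear axes from 0) of Slc1a2 to Slc1a3 and of Gjb6 to Gja1 in each library, by region. Open symbols are control animals, filled symbols stimulated animals and bars the mean of 4 libraries. The ratio of the glutamate transporters is lower in regions 1 and 2 than in all cord libraries, with log2 means of 1.69 against 2.50, while the ratio of the connexins overlaps.

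The blocks under the implant and in the other hemisphere were compared to ask how the members stand beside the electrodes. Aqp4 was higher in region 1 than in region 2, and the other 8 members did not pass. It stood at 90.1, 84.8, 128 and 118 FPKM in region 1 of control animals 1 and 2 and stimulated animals 1 and 2, and at 51.9, 40.1, 47.7 and 106 in region 2 of the same animals. It was higher in 4 of 4 animals, least so in stimulated animal 2, whose region 2 level exceeded the lowest levels of region 1. The log2 fold change was 0.86 (SE 0.21, limma adjusted p = 0.0178). Among all genes 6.86% were called higher and 1.76% lower. The call was lost without control animal 1 (adjusted p = 0.140), control animal 2 (0.128) or stimulated animal 1 (0.314), and with no filter on low genes (0.0548).

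Among the members not called, the largest log2 differences were −0.45 for Gjb6 (SE 0.25, adjusted p = 0.291), 0.42 for Gja1 (SE 0.15, adjusted p = 0.0943) and −0.38 for Aldoc (SE 0.14, adjusted p = 0.103). Within animals Gjb6 differed by −1.44 to 0.10, above 0 in 1 of 4 animals. Its lowest difference was that of stimulated animal 2, at 6.55 FPKM in region 1 and 17.8 in region 2. Gja1 was at 73.9 to 113 FPKM in region 1 and 53.4 to 92.0 in region 2, higher in 4 of 4 animals, and Aldoc was at 166 to 275 and 262 to 335, lower in 4 of 4 animals. Gja1 passed without stimulated animal 2 (adjusted p = 0.0185). Aldoc and Aldh1l1, which was at 3.37 to 5.82 FPKM in region 1 and 4.69 to 6.07 in region 2, passed when libraries were scaled by their upper quartile (adjusted p = 0.0138 and 0.0414). The glutamate genes lay close to equal, with log2 differences of 0.09 for Slc1a2 (−0.05 after quantile normalization), 0.15 for Slc1a3 and 0.18 for Glul, and Slc6a11 differed by −0.07.

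The other astrocyte transport and metabolism genes gave 5 called higher and 0 lower of 25 in region 1. Kcnj16 (3.89 ± 0.564 against 2.13 ± 1.01 FPKM), the urea transporter Slc14a1 (21.2 ± 4.36 against 12.8 ± 5.36) and Mlc1 (109 ± 23.3 against 72.8 ± 28.0), a membrane protein of endfeet, had the largest log2 differences. Mlc1 lies with Aqp4 at the vessel wall. Dag1 was also called, at 18.5 ± 1.14 against 14.5 ± 1.85 FPKM. Astrocyte identity markers gave 2 called higher and 0 lower of 12, Sox9 at 3.83 ± 0.541 against 2.38 ± 0.545 FPKM and Nfia at 10.3 ± 1.39 against 7.93 ± 0.817. Other cell content was also higher in region 1. Of the reactive astrocyte markers, 3 of 8 tested were called higher in region 1 and 0 lower, Gfap at 582 ± 247 against 228 ± 301 FPKM, as were 5 of 6 oligodendrocyte markers, 5 of 5 fibroblast markers and 1 of 6 microglial markers. The summed reactive markers were at 481 to 1256 FPKM in region 1 and 91.2 to 868 in region 2, and the summed oligodendrocyte markers at 1512 to 2943 and 708 to 1391. The highest reactive value of region 2 belonged to stimulated animal 2, the library that also had the highest Aqp4 level there. The part of these cell types in the level of Aqp4 was not tested.

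The lesion epicenter was compared with the cord above it to ask what the injury site retained. Slc6a11 was lower in region 4 than in region 3, and it was the only 1 of the 9 members to pass. It stood at 43.7, 47.7, 38.5 and 38.6 FPKM in region 3 of control animals 1 and 2 and stimulated animals 1 and 2, and at 23.4, 23.8, 25.9 and 34.8 in region 4 of the same animals. The groups did not overlap and the level was lower in 4 of 4 animals (log2 fold change −0.66, SE 0.14, limma adjusted p = 0.00299). Among all genes 12.8% were called lower and 6.78% higher. Without control animal 2 the call was lost (−0.54, adjusted p = 0.0951). In region 5 the gene was at 27.4 to 38.2 FPKM, below every region 3 library, but that difference of −0.37 (SE 0.14) did not pass (adjusted p = 0.115). It passed after upper-quartile scaling (−0.49, adjusted p = 0.0482).

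The groups of Aqp4 and of the connexin gene Gjb6 also did not overlap between regions 4 and 3, while those of Gja1 did. Aqp4 was at 239 to 282 FPKM in region 3 and 302 to 368 in region 4, higher in 4 of 4 animals (log2 difference 0.36, SE 0.21, adjusted p = 0.237). Gjb6 was at 28.2 to 36.2 FPKM in region 3 and 22.9 to 25.4 in region 4, lower in 4 of 4 animals (−0.43, SE 0.25, adjusted p = 0.238). Neither passed when the spread was shared with regions 1 and 2. When the spread came from the 12 cord libraries alone, an alternative chosen after seeing the data, both passed, Aqp4 with an adjusted p of 0.0137 and Gjb6 with 0.00386. Groups did not overlap for 3 of 9 members, against 28.8% of all genes. Gja1 was at 95.0 to 121 FPKM at the lesion and 82.8 to 108 above it (0.15, SE 0.15, adjusted p = 0.533).

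None of the remaining members was called between cord regions in the main fit. Slc1a3 was higher in region 5 than in region 3 in 0 of 4 animals. Across regions 3 to 5, mean Slc1a2 was 264, 243 and 246 FPKM, mean Slc1a3 was 49.5, 43.0 and 40.7, mean Glul was 436, 421 and 464 and mean Aldh1l1 was 11.6, 11.5 and 12.7. Aldoc was lowest at the lesion, with 759 ± 48.0, 648 ± 76.7 and 807 ± 51.4 FPKM in regions 3, 4 and 5, lower in region 4 than in region 5 in 4 of 4 animals (−0.32, SE 0.14, adjusted p = 0.144). Between regions 4 and 5, 0 of 9 members passed in limma, and 7.99% of all genes were called. An unadjusted p under 0.05 was found for 1 member and for 4406 of all 15210 genes. Between regions 5 and 3, 0 of 9 passed, and 4.32% of all genes were called. There 2 members and 3763 of all genes had an unadjusted p under 0.05. With the spread of the cord libraries alone, Gjb6 passed between regions 4 and 5 (−0.40, adjusted p = 0.0205), and Aqp4 (0.40, adjusted p = 0.0181) and Slc1a3 (−0.29, adjusted p = 0.0420) between regions 5 and 3. Slc1a3 also passed there after upper-quartile scaling (−0.40, adjusted p = 0.00326). The median of all genes in these comparisons was −0.14 and 0.11, and after upper-quartile scaling it was 0.02 and −0.01. Relative to the median of all genes, the members lay between −0.26 and 0.23 between regions 4 and 5 and between −0.48 and 0.30 between regions 5 and 3.

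The order of the region means differed between genes. Mean Aqp4 was highest in region 5 and lowest in region 2, with regions 5 and 4 overlapping and every cord library above regions 1 and 2. Slc1a2 and Slc1a3 were highest in region 1, and their 3 cord regions overlapped with their neighbors in the order. Gjb6 and Slc6a11 were highest in region 3, and Gjb6 of region 5 did not overlap with region 4. Gja1, Aldh1l1, Aldoc and Glul had overlapping ranges between neighbors within the cord. Across the 12 cord libraries the members did not all move together. The Pearson correlation of log2 FPKM was 0.85 between Gjb6 and Aldoc and 0.80 between Aldh1l1 and Glul, but −0.64 between Aqp4 and Slc6a11. These libraries share animals and the scaling of the table, and each region contributes 4 of them, so the values are descriptions. The kept genes most like each member over these libraries were Cnn3 for Aqp4 (r = 0.98), Wipf2 and then the potassium channel gene Kcnj10 for Slc1a2 (0.95 and 0.94), Gpr139 for Slc1a3 (0.93), Tprn for Gja1 (0.94), Prkar2b for Gjb6 (0.96), Klhl2 for Aldh1l1 (0.94), Pmm1 for Aldoc (0.98), Srgn for Glul (0.97) and Arhgap32 for Slc6a11 (0.98).

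At the lesion the list of 25 other astrocyte transport and metabolism genes gave 1 called higher and 2 lower than in region 3. Slc14a1 was higher, at 63.8 ± 12.0 against 34.7 ± 3.65 FPKM (adjusted p = 0.00642), and was also called in region 5, at 67.6 ± 2.81 FPKM (adjusted p = 0.0119). The amino acid transporter genes Slc7a10 (12.4 ± 1.21 against 19.2 ± 2.1 FPKM) and Slc38a3 (16.3 ± 1.30 against 19.9 ± 1.45) were lower. Dag1 was higher, at 25.8 ± 1.35 against 20.5 ± 1.63 FPKM. Astrocyte identity markers gave 0 called higher and 1 lower of 12, Fgfr3 at 30.1 ± 2.95 against 36.0 ± 1.84 FPKM. The reactive markers were higher at the lesion, with log2 differences of 0.76 to 1.54 and a median of 1.19. Their summed level was 1669 to 2484 FPKM against 927 to 1361 in region 3. Groups did not overlap for 7 of 8, against 28.8% of all genes. With the spread shared with regions 1 and 2, 0 of 8 were called. In limma, 2 of these markers had an unadjusted p under 0.05, as had 5279 of all 15210 genes.

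Other cell content also changed at the lesion. Neuron markers were lower in 4 of 5 tested, with a summed level of 552 to 687 FPKM against 808 to 1032 in region 3, and microglia and macrophage markers were higher in 4 of 6, with a summed level of 161 to 316 against 77.5 to 116. The 6 oligodendrocyte markers gave 0 calls in either direction, with none at an unadjusted p under 0.05. The part of neuron and immune cell content in the level of Slc6a11 was not tested.

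Stimulated and control animals were compared within each region to ask whether cortical stimulation changed these genes. In limma on 2 against 2 libraries, 0 of 9 members passed in each of the 5 regions, and the smallest adjusted p of a member was 0.712, 0.949, 0.956, 1 and 1 in regions 1 to 5. Of all genes tested, 0% were called in each of regions 1, 2, 3 and 4 and 0.0197% in region 5. An unadjusted p under 0.05 was found for 1 member in each of regions 1, 2 and 3 and for 0 in regions 4 and 5. Among all 15210 genes it was found for 828, 215, 522, 341 and 546 in regions 1 to 5. A model of all 20 libraries also called 0 members in every region. The smallest p that an exact permutation of 2 against 2 libraries allows is 0.333, and an effect of moderate size may go undetected with this number of animals.

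In region 1, Aqp4 was at 90.1 and 84.8 FPKM in the control animals and 128 and 118 in the stimulated animals, a log2 difference of 0.49 (SE 0.12, limma adjusted p = 0.712). Both stimulated libraries were above both controls for Aqp4, Gja1 (113 and 92.5 against 73.9 and 80.9 FPKM), Glul (472 and 516 against 387 and 354) and Slc1a3 (145 and 125 against 123 and 114). Both were below for Slc1a2 (408 and 298 against 465 and 443) and Slc6a11 (10.9 and 9.22 against 12.7 and 12.8). The glutamate transporters therefore lay on opposite sides of their controls. In all, groups did not overlap for 6 of 9 members, but also for 40.6% of all genes in this region. Gjb6 was at 22.3, 15.1 and 20.2 FPKM in 3 animals and at 6.55 in stimulated animal 2, and its log2 difference of −0.67 (SE 0.63) turned to 0.14 without that animal.

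In region 2, Gja1 was at 56.1 and 53.4 FPKM in the control animals and 70.4 and 92.0 in the stimulated animals (log2 difference 0.56, SE 0.17, limma adjusted p = 0.949). Slc1a3, Glul and Aldh1l1 were also above in both stimulated animals, so that groups did not overlap for 4 of 9 members against 27% of all genes. Aqp4 was at 51.9 and 40.1 against 47.7 and 106 FPKM, and its difference of 0.64 (SE 0.46) rested on stimulated animal 2. In the cord the differences were smaller. They lay between −0.24 and 0.05 in region 3, −0.03 and 0.35 in region 4 and −0.20 and 0.16 in region 5, and groups did not overlap for 2, 3 and 1 of 9 members, against 29.9%, 20.2% and 24.6% of all genes. The highest in region 4 was Slc6a11, at 25.9 and 34.8 against 23.4 and 23.8 FPKM, while in region 3 it was the lowest, at 38.5 and 38.6 against 43.7 and 47.7. The difference of these effects, tested on differences within animals for the region pairs 1 and 2, 4 and 3, 4 and 5, and 5 and 3, did not pass for any member (0 of 9 in each pair, and 0% of all genes in each). For regions 4 and 3 and for regions 4 and 5, 1 member each had an unadjusted p under 0.05 in limma, and for the other pairs 0. In both cases it was Slc6a11, with log2 differences of effects of 0.59 (SE 0.20) and 0.55 (SE 0.21). Of all 15210 genes, 655 had such a p for regions 4 and 3 and 458 for regions 4 and 5.

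**Figure D4:**
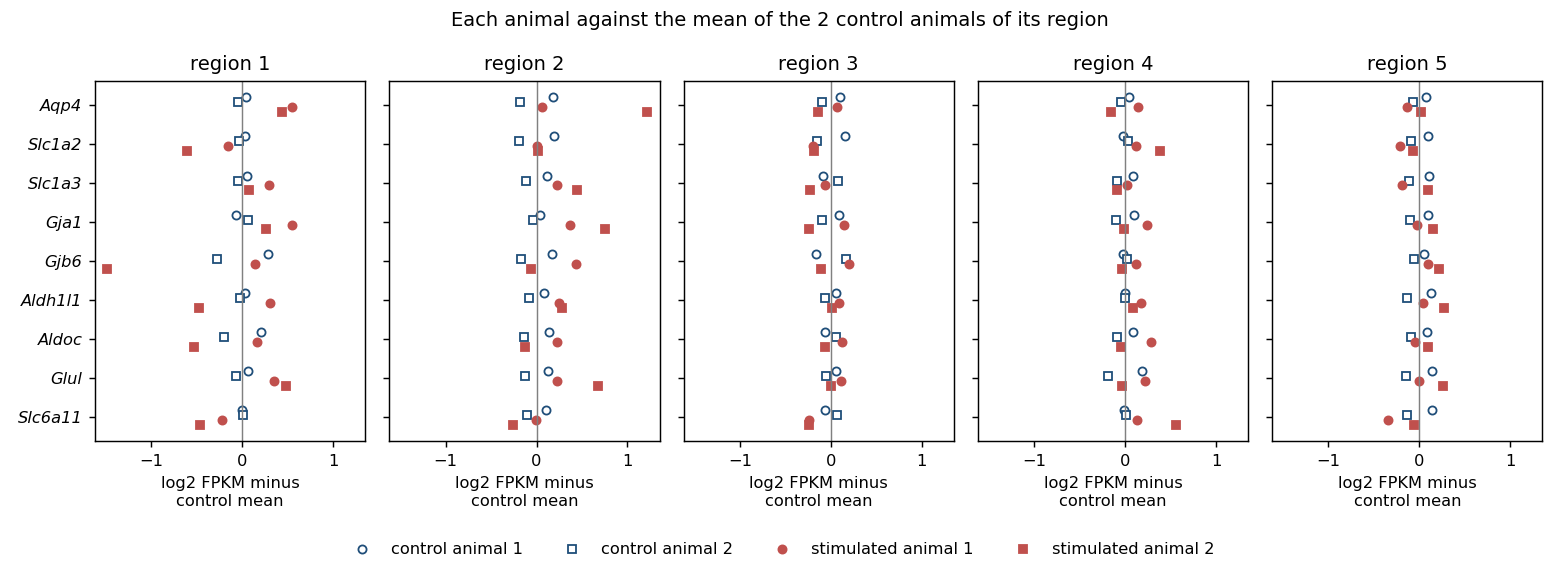
Log2 FPKM of each animal minus the mean log2 FPKM of the 2 control animals, for each member and region. Open symbols are control animals, filled symbols stimulated animals, circles animal 1 and squares animal 2 of a group. In regions 1 and 2 stimulated animal 2 lies farthest out for several genes, such as Gjb6 in region 1 at 6.55 FPKM and Aqp4 in region 2 at 106 FPKM.

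Marker levels of other cell types were also read in these regions. No marker of the reactive (0 of 8), microglial (0 of 6) or cortical excitatory neuron (0 of 3) lists passed in limma between the arms of region 1. There 3, 4 and 1 of them had an unadjusted p under 0.05, as had 828 of all 15210 genes. The summed reactive markers were at 848 to 1256 FPKM in the stimulated animals and 481 to 495 in the controls, the microglial markers at 145 to 227 against 91.1 to 104, and the cortical excitatory neuron markers at 249 to 283 against 352 to 363. In region 2, stimulated animal 2 had a summed microglial level of 226 FPKM and a summed reactive level of 868, while the other 3 libraries were at 37.0 to 43.1 and 91.2 to 119. Stimulated animal 1 was among those 3, at 42.3 and 91.2 FPKM. The part of these markers in the members' values was not tested. Of the 25 other astrocyte transport and metabolism genes, 0 passed in any region. In region 1 those with the strongest evidence before adjustment were Slc14a1 (25.0 ± 0.0075 FPKM in the 2 stimulated and 17.5 ± 1.14 in the 2 control animals) and Slc15a2, a peptide transporter gene (20.4 ± 2.12 against 14.3 ± 0.121), both with a limma adjusted p of 0.712.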

How the data were processed

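Total RNA was depleted of ribosomal RNA, prepared with a stranded kit and sequenced as paired 51 bp reads. According to the study's methods and its processing notes, the reads were aligned to Rnor6 with TopHat2 2.1.0 and expression was estimated with Cufflinks 2.2.1. The authors deposited FPKM values per gene for 20 libraries, with values below 0.1 raised to 0.1. The strand setting in counting is not given in the sources used here. FPKM values hold no read numbers, so no counting interval is given and precision rests on the spread between animals.

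Groups followed the sample titles, and 0 columns were without a sample. Values were log2-transformed, and genes of at least 1 FPKM in any library were kept. limma 3.58.1 in R 4.3.3 (eBayes with trend, Benjamini-Hochberg over 15210 genes, threshold 0.05) was fitted to all 20 libraries with a mean per region, and to the 4 libraries of each region for stimulation. Libraries of different regions from 1 animal were treated as independent in the main fit, and the animal was a block in an alternative. The 3 ratios were tested by exact permutation over 10000 arrangements of the tissue labels within animals. The limma steps were tested on simulated data. Other steps used Python 3.11.15, numpy 2.4.6, pandas 2.3.3 and scipy 1.17.1, and figures matplotlib 3.10.9.

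The members and lists were chosen with earlier results of these data known. All members were named, with the genes of other lists that had the largest differences past the threshold (3 in each direction for other astrocyte transport and metabolism genes, or for stimulation the 2 with the smallest p, up to 3 for other lists) and the kept genes most correlated with each member. Of the listed symbols, 4 were not matched. A ratio and 2 listed genes are not reported here, and p-values of the ratios were adjusted over all 3. Endothelial markers (3 of 5 lower) and ependymal markers (3 of 4 lower) were also read in regions 1 and 2 against the cord. The regions of an animal pair its libraries, as their titles give the arm and number of the animal. Their deviations correlated by 0.41 to 0.77 between regions 1 and 2, 0.14 to 0.26 between regions 4 and 3, −0.09 to 0.11 between regions 4 and 5 and 0.02 to 0.18 between regions 5 and 3. Alternatives were another pseudocount, other filters, quantile normalization, upper-quartile and TPM scaling, eBayes without trend, blocks, a single model of all libraries, the spread of the cord libraries alone and leaving out each animal.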

Additional observations from a re-analysis of the deposited data

Results flagged for a closer look

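Of 45 groups of 4 libraries (9 members in 5 regions) examined for a library far from the others, 1 stood out. Slc1a2 in region 3 was at 312 FPKM in control animal 1, while the other 3 animals were at 244 to 252 FPKM. Chance gives about 1 in 20 such groups, so 1 of 45 is not more than chance gives.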

How the results depend on the processing

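Between regions 1 and 2 and the cord, 8 members were called under every alternative, and 9 without stimulated animal 2, and every called member kept its direction. No alternative for this comparison took the animal as the unit. The number called between other regions moved more. For region 1 against region 2 it was 1 as reported, 0 with no filter on low values, 4 after quantile normalization, 3 after upper-quartile or TPM scaling and 0 to 2 when 1 animal was left out. For region 4 against region 3 it was 1, and 2 after TPM scaling (with Slc1a3), 3 with the spread of the spinal cord libraries only and 0 to 2 when 1 animal was left out. For region 4 against region 5 it was 0, and 1 after quantile normalization (Slc1a3) or with the spinal cord libraries only. For region 5 against region 3 it was 0, and 2 after quantile normalization, upper-quartile or TPM scaling (Slc1a3 and Slc6a11), 2 with the spinal cord libraries only and 0 to 1 when 1 animal was left out. The 0 calls for stimulation remained 0 under all alternatives, and those for differences of stimulation effects in the single model of all 20 libraries, the alternative run for them. The log2 ratio of Gjb6 to Gja1 differed by −0.61 without control animal 1, (exact permutation p = 0.049), and by −0.035 without stimulated animal 2. With the animal as a replicate block, 8, 1, 1, 0 and 0 members were called in the 5 region comparisons, and with the replicate number as a block 0 for stimulation in every region. The animals of an arm share only a number with those of the other, and same-numbered deviations correlated by −0.21, −0.10, −0.11, 0.32 and −0.16 in regions 1 to 5. Over all genes, that block moved the calls in region 5 from 1 higher and 2 lower to 322 and 121. Genes called higher in region 1 than in region 2 numbered 1043, and from 13 (without stimulated animal 1) to 3291 (without stimulated animal 2).

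Every value that changed sign belonged to a member that was not called. Log2 differences that changed sign with the scaling were, for Glul in regions 1 and 2 against the cord, 0.13 (quantile) and 0.075 (TPM), and for Slc1a2 in region 1 against region 2, −0.047 (quantile). For Aldh1l1 in region 4 against region 3 they were 0.018 (quantile) and 0.026 (upper quartile). For region 4 against region 5 they were, in the order quantile, upper quartile and TPM, 0.12, 0.11 and 0.10 for Aqp4, 0.15, 0.14 and 0.13 for Slc1a2, 0.0071, 0.016 and 0.0061 for Aldh1l1 and 0.014, 0.017 and 0.0062 for Glul. For region 5 against region 3, in the same order, they were −0.095, −0.030 and −0.068 for Aldoc and −0.044, −0.034 and −0.071 for Glul, with −0.019 (quantile) and −0.030 (TPM) for Gja1 and −0.028 (TPM) for Aldh1l1. For stimulation in region 2 they were −0.39, −0.096 and −0.14 for Slc1a2 and −0.18, −0.057 and −0.099 for Aldoc, and in region 3 −0.013 (quantile) for Glul. In regions 3 to 5 only the lowest and highest member are given here by scaling. Aldoc for stimulation in region 3 was 0.029 in the main fit and ranged from −0.19 to 0.12 over all 14 settings. Leaving out 1 animal moved it only between −0.061 and 0.12. When 1 animal was left out, the ranges that held both signs were, in region 1 against region 2, −0.031 to 0.23 for Slc1a2, and in region 4 against region 3, −0.23 to 0.017 for Slc1a2 and −0.030 to 0.019 for Aldh1l1. In region 4 against region 5 they were −0.13 to 0.021 for Aqp4, −0.10 to 0.088 for Slc1a2 and −0.058 to 0.083 for Gja1, and in region 5 against region 3, −0.12 to 0.058 for Gjb6. For stimulation, 3, 3, 6, 6 and 5 of 9 members had ranges with both signs in regions 1 to 5. They were, in region 1, −1.48 to 0.14 for Gjb6, −0.48 to 0.31 for Aldh1l1 and −0.53 to 0.16 for Aldoc, in region 2, −0.18 to 0.20 for Slc1a2, −0.059 to 0.43 for Gjb6 and −0.13 to 0.23 for Aldoc, and among others in region 3, −0.0018 to 0.11 for Glul, in region 4, −0.12 to 0.052 for Slc1a3 and −0.15 to 0.14 for Aqp4, and in region 5, −0.19 to 0.092 for Slc1a3. The cause of these changes was not tested. With FPKM values alone, depth could not be weighed, and the 2 animals per arm limit every statement on stimulation.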
